A study of Mus musculus with 8 samples.

Results

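Receptors on the luminal surface let epithelial cells of the gut read nutrients and microbial metabolites. Counts were taken for 9 such G protein-coupled receptors by gene symbol, out of 35199 genes in the table: the succinate receptor Sucnr1, the free fatty acid receptors Ffar1, Ffar2, Ffar3 and Ffar4, the bile acid receptor Gpbar1, the lipid amide receptor Gpr119, the calcium-sensing receptor Casr and the hydroxycarboxylic acid receptor Hcar2. All 9 symbols were listed, 8 had a count in at least 1 library, and 5 (Sucnr1, Ffar1, Ffar2, Ffar3 and Ffar4) passed the expression filter. The cells were ZSgreen-positive tuft cells, sorted as live, EpCAM-high cells from the jejunum of Dclk1-DTR-ZSgreen mice, 1 library per mouse. In this BAC transgenic line, which both groups carried, Dclk1 sequences drive the diphtheria toxin receptor and ZSgreen, so the cells are those in which the transgene is active. Founders came from CBA and C57BL/6J crosses and were backcrossed to C57BL/6J. From 8 to 10 weeks of age, 4 mice received scopolamine, a nonselective muscarinic receptor antagonist, from an osmotic pump at 0.5 mg/kg per day for 7 days (replicates 1 to 4), and 4 sham mice received sodium chloride (replicates 5 to 8).

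Tuft cells are sparse chemosensory cells of the epithelium. Succinate released by microbes and protists acts on Sucnr1 in small intestinal tuft cells, and calcium release then opens the cation channel Trpm5 and leads to secretion of Il25, the start of the type 2 circuit. Ffar2 and Ffar3 respond to short-chain fatty acids made by fermentation, and Ffar1 and Ffar4 to medium- and long-chain fatty acids. Gpbar1, Gpr119 and Casr are known in the gut mainly from enteroendocrine cells, where they regulate hormone release. Sucnr1, Ffar2, Ffar3 and Hcar2 signal through inhibitory G proteins, Ffar1 and Ffar4 largely through Gq, and Gpbar1 and Gpr119 through stimulatory G proteins.

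The promoters of Ffar3 and Sucnr1, the most abundant of the 9 transcripts, are shown because both hold letters of the octamer ATGCAAAT, the sequence bound by POU-family factors. Pou2f3, which specifies tuft cells, belongs to that family. The windows run from 250 bases before to 50 bases after the RefSeq start on GRCm38.p6, and capitals mark the match. The Sucnr1 window (chr3:60081619-60081918, plus strand) holds the whole octamer, beginning at position -48. The Ffar3 window (chr7:30856129-30856428, minus strand) holds its first 7 letters, ATGCAAA, read on the opposite strand as TTTGCAT and beginning at position -136.
Ffar3: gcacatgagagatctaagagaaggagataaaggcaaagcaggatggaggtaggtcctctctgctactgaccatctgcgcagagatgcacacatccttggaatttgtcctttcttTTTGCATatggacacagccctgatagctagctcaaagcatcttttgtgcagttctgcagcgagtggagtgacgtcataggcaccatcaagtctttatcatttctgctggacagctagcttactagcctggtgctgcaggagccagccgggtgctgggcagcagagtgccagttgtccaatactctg
Sucnr1: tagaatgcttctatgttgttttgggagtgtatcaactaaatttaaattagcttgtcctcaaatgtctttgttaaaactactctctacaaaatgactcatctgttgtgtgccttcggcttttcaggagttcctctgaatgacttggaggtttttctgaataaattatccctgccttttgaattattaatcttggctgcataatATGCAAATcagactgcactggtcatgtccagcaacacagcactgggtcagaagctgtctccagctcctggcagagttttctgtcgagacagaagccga

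Both motifs were searched on both strands, and every ATGCAAAT also contains ATGCAAA. Among all 32851 promoters of the same length, 570 (1.735%) held the octamer and 1520 (4.627%) held the 7-letter form. The windows of Ffar1, Ffar2, Ffar4, Gpbar1, Gpr119 and Casr held neither, and no window of Hcar2 was used. A match describes the letters and is not evidence of binding.

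Library totals ran from 14343362 to 41428916 estimated counts, and all 4 sham totals exceeded all 4 scopolamine totals. Counts were scaled to CPM, counts relative to library size, with TMM factors, and 3 counts, used as the floor of detection, were worth 0.0729 to 0.212 CPM. Sham replicates 5 and 7 were amplified from 200 pg of RNA with 15 cycles, and the other 6 libraries from 1000 pg with 10 cycles. All 15 tuft markers were over the floor, and they summed to 15273 to 26815 CPM with scopolamine and 19915 to 23502 CPM in sham. Markers of other cell types were also present. Enteroendocrine markers summed to 102 to 582 CPM with scopolamine and 8.27 to 420 CPM in sham, and enterocyte markers to 3416 to 7492 CPM and 2626 to 6858 CPM. In bulk samples such as these, fewer cells of a type and less RNA per cell cannot be told apart.

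Ffar3 was the most abundant of the 9 receptors in every library. It measured 373, 297, 508 and 321 CPM in scopolamine replicates 1 to 4, and 488, 406, 390.3 and 359 CPM in sham replicates 5 to 8. The groups overlapped, and the highest value was that of scopolamine replicate 3. The means were 374.8 ± 94.4 CPM in scopolamine mice and 411 ± 55.1 CPM in sham mice (SD, n = 4 each), a log2 fold change of -0.13 (SE 0.19) with an adjusted p of 0.933 in edgeR's quasi-likelihood test. None of the 12849 genes tested passed an adjusted p of 0.1 in that test (0%), while 770 (5.99%) had an unadjusted p under 0.05, and DESeq2 called 190 of 14462 (1.31%). The exact permutation test of the Ffar3 difference gave p = 0.457 (two-sided), where 4 mice against 4 allow no p below 0.0286. Without scopolamine replicate 3 the log2 fold change was -0.32, and without scopolamine replicate 2 it was -0.044.

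Sucnr1 varied more between mice. Its level was 48.5, 38.3, 136.8 and 30.0 CPM in scopolamine replicates 1 to 4, and 84.3, 46.1, 56.1 and 38.6 CPM in sham replicates 5 to 8. Scopolamine replicate 3 stood above the other 7 libraries, sham replicate 5 came next, and the remaining mice of both groups were interspersed. The means were 63.4 ± 49.5 CPM in scopolamine mice and 56.3 ± 20.01 CPM in sham mice (SD, n = 4 each), and the log2 fold change was 0.17 (SE 0.45, edgeR adjusted p = 0.977). The direction rested on 1 mouse: without scopolamine replicate 3 the log2 fold change was -0.53, and the mean of the other 3 scopolamine mice was 39.0 CPM. The difference in mean log2 CPM was also below 0, at -0.035 (exact permutation test, two-sided, p = 0.971). In sham, Sucnr1 averaged 70.2 CPM in the low-input libraries and 42.4 CPM in the others, and the log2 fold change was 0.56 without the low-input libraries and 0.58 with amplification cycles as a covariate. Both mice with the most Sucnr1 carry the letter M in their IDs, as do 3 of 4 scopolamine mice and 1 of 4 sham mice. With that letter as a covariate the log2 fold change was -0.41, so its direction also depended on the covariates.

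**Figure D1:**
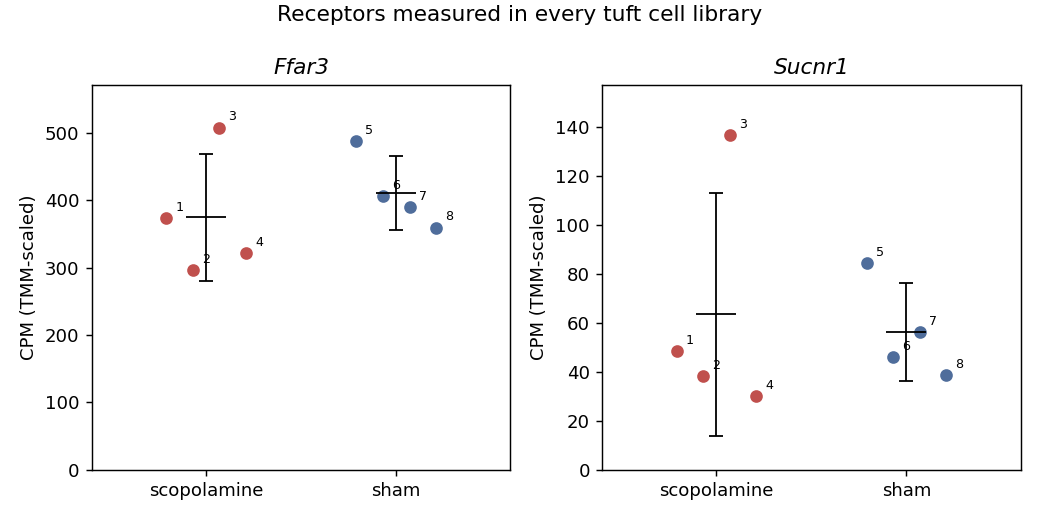
Ffar3 and Sucnr1 in each library, in TMM-scaled CPM on a linear axis from 0. Points are mice with their replicate numbers, horizontal marks are group means and bars are 1 SD (n = 4). Both groups overlap for both genes, and scopolamine replicate 3 is highest for each (508 CPM of Ffar3 and 136.8 CPM of Sucnr1).

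Divided by exon length, the order of the receptors was the same at the top in every mouse. Ffar3 averaged 212.5 CPM per kb over the 8 libraries, a level above that of 98.5% of genes with a count, and Sucnr1 averaged 36.5 CPM per kb, above 93.2%. On this scale Ffar3 stood beside the channel Trpm5 (213 CPM per kb), and Sucnr1 beside the tuft cell cytokine Il25 (38.7 CPM per kb) and Chat (31.5 CPM per kb), the enzyme that makes acetylcholine. Ffar3 ran from 160 to 275 CPM per kb and Sucnr1 from 18.3 to 83.4 CPM per kb, so the ranges did not overlap. The ratio of Ffar3 to Sucnr1 per kb had a median of 6.84, lowest in scopolamine replicate 3 (3.29) and highest in scopolamine replicate 4 (9.50). The sham ratios, 5.14 to 8.26, lay inside the range of the scopolamine ratios (exact permutation test, two-sided, p = 0.8). With the longest transcript as the length, the median ratio was 7.46.

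Below Sucnr1 came a wide gap. Ffar4 averaged 0.975 CPM per kb, Ffar2 0.750, Gpbar1 0.345, Ffar1 0.274, Gpr119 0.143 and Casr 0.0849, and Hcar2 had no count. Sucnr1 exceeded Ffar4 in 8 of 8 libraries without overlap, but the neighbours under Sucnr1 overlapped: Ffar4 exceeded Ffar2 in 6 of 8 libraries, and Gpbar1 exceeded Ffar1 in only 1. In summed counts, Ffar3 made up 77.5% to 90.0% of the counts of all 9 receptors in a library, Sucnr1 8.34% to 20.9%, and the other 7 together 0.183% to 3.78%.

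**Figure D2:**
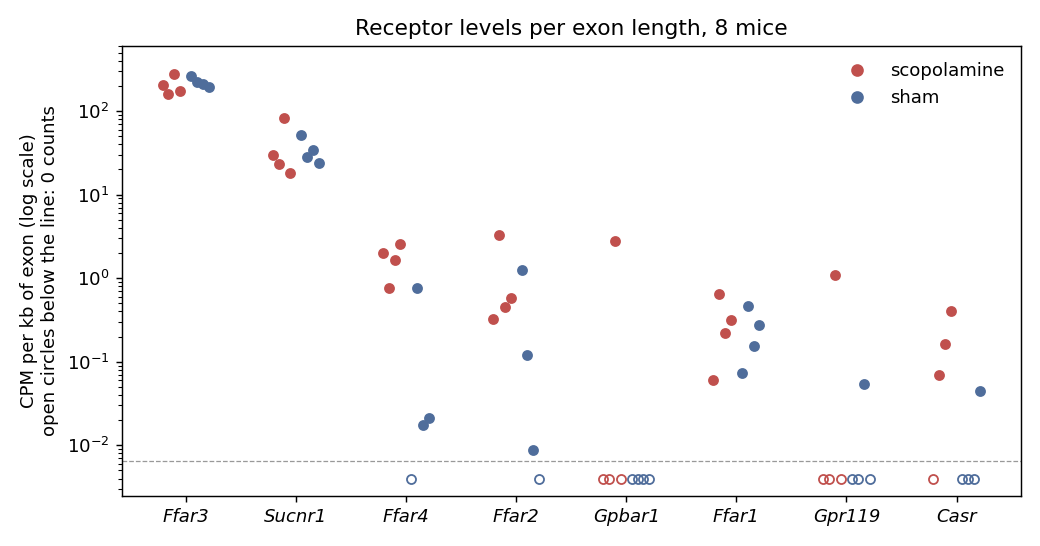
Level of each receptor per kb of exon, in TMM-scaled CPM per kb on a log axis, 1 point per mouse, with libraries at 0 counts as open circles below the dashed line. Ffar3 (160 to 275 CPM per kb) and Sucnr1 (18.3 to 83.4 CPM per kb) are separated from each other and from the rest, whose points overlap.

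The genomic neighbours of Ffar3 did not share its level. Ffar1, Ffar2 and Ffar3 lie on the minus strand of chromosome 7 of GRCm38: Ffar3 at chr7:30854330-30856178, Ffar1 at chr7:30857390-30861564 and Ffar2 at chr7:30818348-30823775. The start of Ffar1 lies 5386 bases upstream of the start of Ffar3, and that of Ffar2 32403 bases downstream. Per kb, the mean of Ffar3 was 775 times that of Ffar1 and 283 times that of Ffar2, or 560.4 times without scopolamine replicate 2. The annotated transcripts of these 3 genes overlap no other gene, and Ffar3 shares no word of 31 bases with another gene's transcripts. Ffar1 shares 55 of its 4078 words (1.35%), so a small part of its low count could be assigned from elsewhere. Sucnr1 lies at chr3:60081869-60087566 on the plus strand and shares none.

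Ffar3, Sucnr1 and the tuft markers varied together across the 8 mice. For Ffar3 and Sucnr1 in log2 CPM, Pearson's r was 0.91 (exact permutation p = 0.00134, adjusted over 3 relations 0.00402) and Spearman's rho 0.90 (exact permutation p = 0.00456, adjusted 0.00724). Without scopolamine replicate 3 and sham replicate 5, the mice farthest from the median of Sucnr1, r was 0.73 (exact permutation p = 0.1), so the relation rests in part on those mice. Ffar3 followed the summed tuft markers with r = 0.86 (exact permutation p = 0.0094, adjusted 0.0141) and rho = 0.88 (exact permutation p = 0.00724), and without scopolamine replicates 2 and 4 r was 0.72 (exact permutation p = 0.0931). For Sucnr1 and the tuft markers r was 0.81 (exact permutation p = 0.0164) and rho 0.88, and without scopolamine replicates 2 and 4 r was 0.82 (exact permutation p = 0.0472) and rho 0.71 (exact permutation p = 0.136). These 3 relations were chosen after the values were seen. Each group, and each letter of the mouse IDs, holds 4 mice, too few for a value of its own.

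As a share of the summed tuft markers, Ffar3 was nearly constant. It came to 1.69%, 1.79%, 1.89% and 2.10% in scopolamine replicates 1 to 4, and to 2.18%, 1.75%, 1.66% and 1.80% in sham replicates 5 to 8. Sucnr1 came to 0.220%, 0.231%, 0.510% and 0.197%, and to 0.377%, 0.199%, 0.239% and 0.194%. Scopolamine replicate 3 and sham replicate 5 thus remained the highest for Sucnr1 on this scale, while for Ffar3 the highest were sham replicate 5 and scopolamine replicate 4. On this scale the group differences were 0.018 for Ffar3 (exact permutation p = 0.83) and 0.14 for Sucnr1 (exact permutation p = 0.686), in log2 units.

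**Figure D3:**
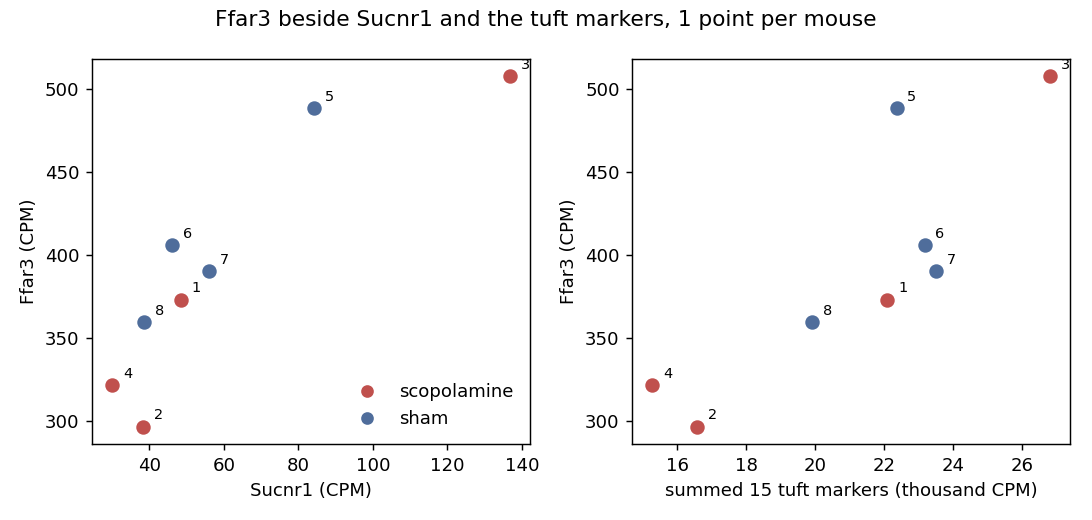
Ffar3 in CPM against Sucnr1 in CPM (left) and against the summed CPM of 15 tuft markers (right, axis in units of 1000 CPM), 1 point per mouse with its replicate number. Pearson's r in log2 CPM was 0.91 and 0.86, and scopolamine replicate 3 is the point at the upper right of both panels.

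Among genes with a mean of at least 10 CPM, those ranked most like Ffar3 over the 8 libraries were the histone deacetylase Hdac1 (Spearman's rho = 1), the tuft marker Dclk1 (0.976) and the sulfite oxidase Suox (0.952), with 30 genes over 0.9. For Sucnr1 they were the cytokine receptor kinase Jak2 (1), Fam49a (1) and Tmem158 (0.976), with 64 genes over 0.9. With 8 libraries, high rank correlations arise for many genes, and the libraries share depth and cell makeup, so these values are descriptions. The nearest to Ffar1, Ffar2 and Ffar4 were Eif1ad (0.976), Sult1d1 (1) and Zfp296 (0.976).

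The receptors for longer fatty acids were low. Ffar4 (chr19:38097071-38114263, plus strand) had 56, 23, 33 and 76 counts in scopolamine replicates 1 to 4 and 0, 44, 1 and 1 counts in sham replicates 5 to 8, or 2.81, 1.08, 2.33 and 3.59 CPM against 0, 1.07, 0.0248 and 0.0298 CPM. Thus 3 sham mice were at or under the floor, while sham replicate 6 all but met the lowest scopolamine mouse. The means were 2.45 ± 1.05 CPM (SD, n = 4) and 0.281 ± 0.526 CPM (SD, n = 4), with a log2 fold change of 3.09 (SE 1.41), which did not pass the test (edgeR unadjusted p = 0.0519, adjusted p = 0.812, and 0.369 in DESeq2). The exact permutation test gave p = 0.0286, the smallest it allows, unadjusted for the 8 receptors examined.

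Ffar4 was the only one of the 9 receptors whose groups did not overlap, where 499 of the 12849 genes past the filter (3.88%) did not overlap, 247 (1.92%) of them with scopolamine higher. Among the 18349 genes over 3 counts in a library, 586 (3.19%) did not overlap, 304 (1.66%) with scopolamine higher. Since 4 scopolamine mice but only 1 sham mouse were over the floor, the gene reached the filter through the scopolamine group. The separation rests on 1.08 CPM in scopolamine replicate 2 against 1.07 CPM in sham replicate 6, and it was lost when every library was thinned to the smallest total (14 counts against 19). The log2 fold change was 2.14 without both low-input sham libraries and also with amplification cycles as a covariate. Without sham replicate 5 it was 2.69. Without sham replicate 6 it was 6.67, a fitted value that depends on the prior count because the remaining sham mice were at or under the floor. Ffar4 is known from enteroendocrine cells, whose markers summed to 233, 380, 102 and 582 CPM in scopolamine replicates 1 to 4 and to 65.4, 12.4, 420 and 8.27 CPM in sham replicates 5 to 8. Scopolamine replicate 4 was the highest of all mice for both, whereas sham replicate 7 had 1 count of Ffar4. The part of those cells in the Ffar4 counts was not tested.

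Ffar1, which responds to similar ligands, had 5, 57, 13 and 28 counts with scopolamine and 8, 79, 26 and 38 counts in sham. It was over the floor in all 8 mice, and the groups overlapped throughout. The means were 1.29 ± 1.02 CPM (SD, n = 4) and 1.0 ± 0.702 CPM (SD, n = 4), a log2 fold change of 0.37 (SE 0.89, edgeR adjusted p = 0.977), which was -0.28 without scopolamine replicate 2 and -0.26 without both low-input sham libraries.

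Ffar2, the other receptor for short-chain fatty acids, had 18, 194, 18 and 34 counts with scopolamine and 93, 14, 1 and 0 counts in sham. Scopolamine replicate 2 (9.08 CPM) and sham replicate 5 (3.52 CPM) were each far above the rest of their group. These mice also had the highest enterocyte sums (7492 and 6858 CPM) and lymphocyte sums (102 and 126 CPM) of their groups. Scopolamine replicate 2 had the highest gut hormone sum of its group as well (658 CPM), whereas sham replicate 5 (249 CPM) did not. The cells were sorted as EpCAM-high and ZSgreen-positive, and the part of other cell types in the Ffar2 counts was not tested. The means were 3.21 ± 3.92 CPM (SD, n = 4) and 0.972 ± 1.71 CPM (SD, n = 4), a log2 fold change of 1.73 (SE 1.56, edgeR adjusted p = 0.884). It was 0.37 without scopolamine replicate 2 and 4.66 without sham replicate 5.

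The receptors for bile acids and lipid amides were detected almost only in 1 mouse. Gpbar1 (chr1:74278550-74279624, plus strand) had 42 counts in scopolamine replicate 3 and 0 in the other 7 libraries. Gpr119 (chrX:48667979-48674478, minus strand) had 35 counts in the same library, 5 in sham replicate 7 and 0 in the other 6. That mouse had the smallest library, with 14343362 counts, and 149 of 18349 genes (0.812%) were over the floor there and in no other library.

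The scopolamine mean of Gpbar1, 0.741 ± 1.48 CPM (SD, n = 4), was 8.46 times the mean sham floor of 3 counts per library. That ratio is a lower bound of the fold over sham, and it rests on scopolamine replicate 3 alone. Gpr119 averaged 0.617 ± 1.23 CPM in scopolamine mice and 0.0310 ± 0.0619 CPM in sham mice (SD, n = 4 each), and neither gene passed the test without a filter (edgeR adjusted p = 0.587 and 0.622). Without scopolamine replicate 3 the log2 fold change of Gpr119 turned from 4.03 (SE 2.24) to -3.09, a fitted value against scopolamine mice that were then all at 0. In that library the enteroendocrine sum was the lowest of the scopolamine mice (102 CPM), and the tuft sum (26815 CPM) and myeloid sum (35.5 CPM) were the highest of all 8. Its gut hormone sum was 425 CPM, between the lowest and highest scopolamine mice (265 and 658 CPM). Of 12 gut hormones, 1 peaked there, Gip at 57.1 CPM. Sham replicate 7, the other mouse with Gpr119, had the highest gut hormone sum of all 8 (1169 CPM). Of the 14 myeloid markers, 6 peaked in scopolamine replicate 3, and Fcgr1, S100a8 and S100a9 were at or under 3 counts in every library. The largest parts of the myeloid sum of that mouse were Itgam (15.4 CPM) and Lyz2 (13.9 CPM). Its Csf1r (0.282 CPM) was just over the floor of 0.212 CPM and its Adgre1 (0.141 CPM) under it. Myeloid sums were 19.6 to 35.5 CPM with scopolamine and 15.3 to 18.4 CPM in sham. The part of myeloid or enteroendocrine cells in the Gpbar1 and Gpr119 counts was not tested.

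Casr (chr16:36493696-36562141, minus strand), which senses extracellular calcium and amino acids, had 0, 7, 11 and 40 counts with scopolamine and 0, 0, 0 and 7 counts in sham. The mouse with the most, scopolamine replicate 4, also had the highest enteroendocrine sum (582 CPM), while scopolamine replicate 1 (233 CPM) and sham replicate 7 (420 CPM) had no count of Casr, and the part of those cells in the Casr counts was not tested. The means were 0.749 ± 0.825 CPM (SD, n = 4) and 0.0522 ± 0.104 CPM (SD, n = 4). The log2 fold change of 3.68 (SE 1.89) did not pass the test without a filter (edgeR adjusted p = 0.597), and it was 2.65 without scopolamine replicate 4. Without sham replicate 8 it was 7.31, where the remaining sham mice were at 0 and the fitted value depends on the prior count. Casr overlaps Gm25902 on the same strand, and it shares no word of 31 bases with another gene's transcripts.

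Hcar2 (chr5:123863570-123865499, minus strand), a receptor for butyrate and ketone bodies, had 0 counts in all 8 libraries. At the floor of 3 counts, a count of 0 allows a level of up to 0.0729 to 0.212 CPM, depending on the library, for counting error only.

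**Figure D4:**
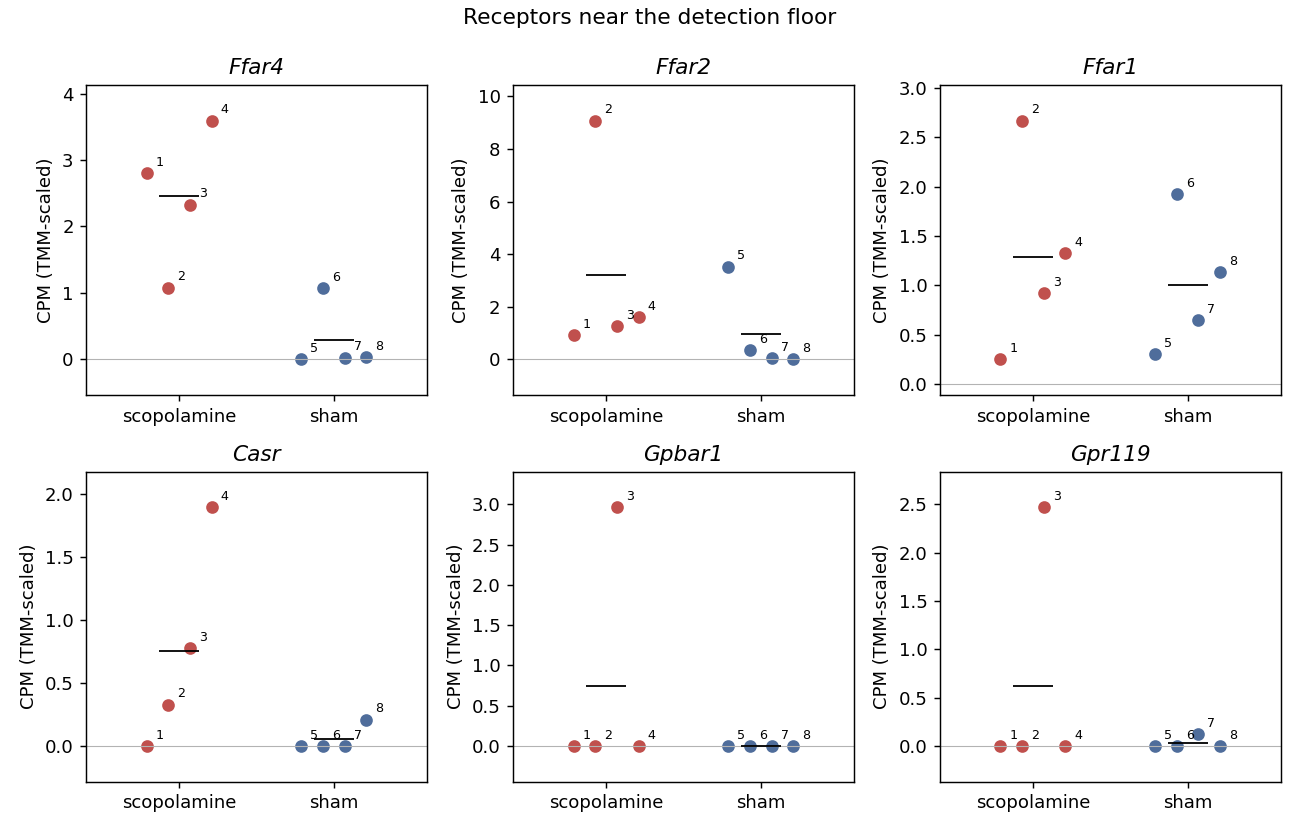
Receptors with low counts in each library, in TMM-scaled CPM on linear axes of different height. Points are mice with their replicate numbers and horizontal marks are group means. Ffar4 separates the groups by 1.08 against 1.07 CPM, and the only mouse with Gpbar1 is scopolamine replicate 3 (2.96 CPM).

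The number of receptors over 3 counts was 5, 6, 8 and 6 in scopolamine replicates 1 to 4 and 4, 5, 4 and 4 in sham replicates 5 to 8. The 8 in scopolamine replicate 3 included Gpbar1 and Gpr119. Over all genes, those with any count numbered 15834 to 17124 with scopolamine and 15812 to 17197 in sham, which overlap. The number over 3 counts per library was not taken for all genes, so the receptor numbers are a description only. The sham libraries were deeper. Of the 8 receptors with counts, 7 had a fitted log2 fold change above 0 and Ffar3 one below 0, with a median of 2.41, while of the 18349 genes over 3 counts in a library 9185 were above 0 and 9164 below (median 0.00061, or 0.056 with genes at the floor in 1 group set to their bound). None of the 8 passed an adjusted p of 0.1 in edgeR, DESeq2 or limma-voom, and 0 of the 5 past the filter had an unadjusted edgeR p under 0.05. In the fit without a filter Gpbar1, counted in 1 mouse, had an unadjusted p of 0.0213, and its exact permutation p was 1. DESeq2 gave no adjusted p for Ffar2, Gpbar1 and Gpr119. Of these 8 receptors, 6 had few counts, so the median describes genes near the floor, and it was also 2.41 with Gpbar1 set to its bound.

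**Figure D5:**
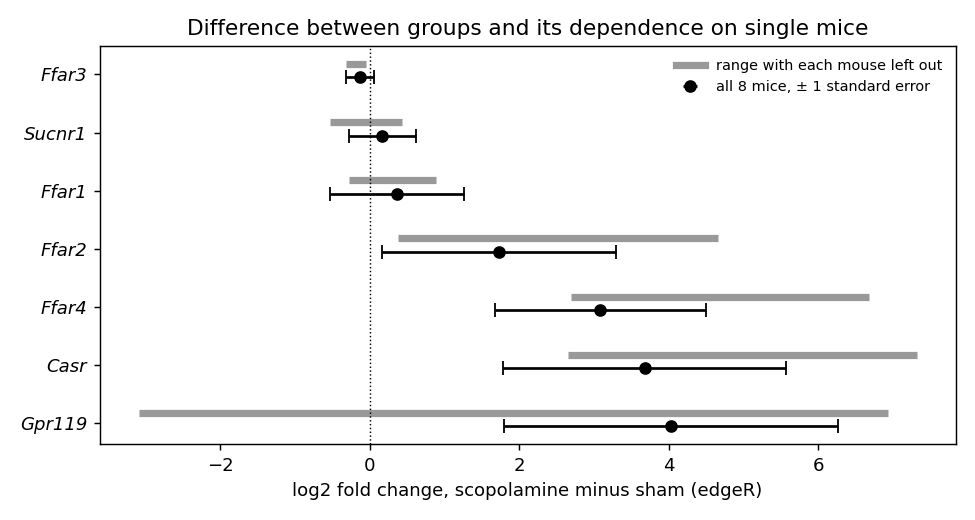
Fitted log2 fold change of the receptors, scopolamine minus sham, from edgeR. Black points are the estimates from all 8 mice with bars of 1 SE, and grey bars span the estimates with each mouse left out in turn. The bars of Ffar3 (-0.13, SE 0.19) and Sucnr1 (0.17, SE 0.45) include 0, while the grey bars of Ffar2, Ffar4, Casr and Gpr119 are wide, and ends of those of Ffar4, Casr and Gpr119 depend on the prior count where a group is left with almost no counts.

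Other metabolite receptors were mostly at or under the floor. Of 10, 6 (Hcar1, Oxgr1, Gpr84, Gprc6a, Gpr142 and Gpr31b) were at or under 3 counts in every library, and of the other 4, none passed the edgeR test, with 2 fold changes above 0 and 2 below. Lpar5, a lysophosphatidic acid receptor, was the highest, at 30.5 CPM with scopolamine and 27.2 CPM in sham. Gpr55, a lysophospholipid receptor, ran from 12.3 to 20.2 CPM with scopolamine and from 3.76 to 10.8 CPM in sham without overlap (log2 fold change 0.91, SE 0.44, edgeR adjusted p = 0.812).

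The signalling genes downstream of the receptors ranged from abundant to undetected, and none of them passed the edgeR test. Of 16 G protein alpha subunits, 15 were over 3 counts and none passed the edgeR test (9 fold changes above 0 and 6 below). Gnai2, an inhibitory subunit, averaged 1338 CPM with scopolamine and 1517 CPM in sham (log2 fold change -0.18), and Gnas, the stimulatory subunit, 793.6 and 887.5 CPM (-0.16). Per exon length, Gnai2 averaged 378 CPM per kb and the Gq subunit Gnaq 2.60 CPM per kb over the 8 libraries. Gna11, the other widely expressed Gq-class subunit, averaged 337 CPM with scopolamine and 207 CPM in sham (log2 fold change 0.70). Of 9 genes of phospholipase C signalling and calcium release none passed (6 above 0 and 3 below). Trpm5, at 1368 and 1358 CPM, had a log2 fold change of 0.011, Plcb2 one of -0.18 and the inositol trisphosphate receptor Itpr2 one of -0.19. Gna15 (0.150 to 1.47 CPM with scopolamine, 0.0248 to 0.0895 CPM in sham) and Plcb1 (0.0936 to 6.19 CPM, 0 to 0.0248 CPM) did not overlap between groups. All sham values of both were at or under the floor (edgeR adjusted p = 0.587 for each, without a filter). Of the scopolamine mice, 3 were over the floor for Gna15 and only 1, replicate 4 with 131 counts, for Plcb1.

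Adenylyl cyclases (10 genes, 5 above 0 and 5 below) and receptor kinases and arrestins (7 genes, 1 above 0 and 6 below, median log2 fold change -0.19) held no gene past the test either. The leading cyclase was Adcy5, with 116 and 124 CPM, and the leading kinase Grk6, with 119 and 135 CPM. Of the 7 enzymes that make or use succinate inside the cell, none passed, 4 were above 0 and 3 below. Sdhb, a subunit of succinate dehydrogenase, had a log2 fold change of -0.062 and Suclg1, of succinyl-CoA ligase, one of 0.023, whereas Sdha had one of 0.38 with an unadjusted p of 0.0347 and an adjusted p of 0.812.

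Genes that handle bile acids and fatty acids had log2 fold changes above 0 in 9 of 10 cases (median log2 fold change 0.88), but none passed in edgeR. Cd36, a fatty acid transporter, measured 0.846 to 3.51 CPM with scopolamine and 0 to 0.0973 CPM in sham, and it had an adjusted p of 1.92e-04 in DESeq2 and of 0.812 in edgeR. Slc51a, a basolateral bile acid transporter, averaged 50.4 CPM with scopolamine and 10.3 CPM in sham (log2 fold change 2.29), and the bile acid nuclear receptor Nr1h4 20.9 and 5.10 CPM (2.03). Both are known from enterocytes, and all 14 enterocyte markers likewise had fold changes above 0 (median 1.56), their part in these values not being tested.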

How the data were processed

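RNA from sorted cells (3000 for replicates 1 and 5, 4000 for the others) was amplified with the Clontech Ultra Low v4 kit, and libraries were made with Nextera XT. The submitters' processing notes name bcl2fastq 2.20 and kallisto 0.44.0. The authors summed transcript estimates per gene with tximport and deposited estimated counts per gene on GRCm38, without normalization, as whole numbers. Which annotation release was used, and whether strand was, is not given in the sources used here. Pseudoalignment can split reads between genes that share sequence. Amplification, of up to 15 cycles, can add noise at low counts, and floors cover counting error only.

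Groups came from the treatment label, and each library is 1 mouse. RNA input and cycles came from the study's supplement. The letter of the mouse ID is not explained there. It was M for scopolamine replicates 1 to 3 and sham replicate 5 and N for the others, so it is partly confounded with treatment. Rounding changed 0 values. Counts were tested with the quasi-likelihood test of edgeR 4.0.16 (R 4.3.3) after TMM scaling, over the 12849 genes that filterByExpr kept, at a Benjamini-Hochberg adjusted p under 0.1. Receptors and list genes removed by the filter were taken from the same fit on 21805 genes with a count. Also tried were limma-voom (limma 3.58.1), DESeq2 1.42.0, other scalings, filters and thresholds, RNA input, cycles or mouse ID letter, thinning and leaving out each mouse. Single genes were compared by exact permutation over 70 assignments in log2 CPM (prior count 2). Levels per length used the union of exons of GENCODE M21 on GRCm38. Promoters were from a table made from RefSeq, in which 8 of the 9 genes were matched. In simulated data for this comparison, drawn for 12849 genes, edgeR recovered 82 of 100 genes changed by a log2 of 4 and 51 of 100 changed by 2, with 11 false calls. DESeq2 recovered 90 and 61, with 82 false calls. The changed genes were drawn at random from all genes past the filter, so these rates are not those of receptors with few counts.

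The receptors and all lists were chosen with earlier results of these data known. The genes named from each list are those past the edgeR threshold, those whose groups do not overlap and the 4 with the highest mean CPM, of which the text gives some. For likeness, the 3 nearest genes were named for Sucnr1 and Ffar3 and the nearest 1 for the other receptors past the filter.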

Additional observations from a re-analysis of the deposited data

Results flagged for a closer look

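In groups of 4 mice, a value was listed here when its gap to the nearest mouse took up a larger part of the group's whole range than Dixon's critical value allows. Of 45 sets of 4 values examined, 12 did so, where chance gives about 1 in 20 for independent, normally distributed values. Low counts are not such values: in 4 of the 12 (Gpbar1 and Gpr119 with scopolamine, Gpr119 and Casr in sham) the other 3 mice were at 0, so the criterion was met by construction.

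Among the receptors, scopolamine replicate 2 stood apart for Ffar2 (9.08 CPM), and scopolamine replicate 3 for Gpbar1 (2.96 CPM) and Gpr119 (2.47 CPM). In sham, replicate 5 stood apart for Ffar2 (3.52 CPM), replicate 6 for Ffar4 (1.07 CPM), replicate 7 for Gpr119 (0.124 CPM, 5 counts) and replicate 8 for Casr (0.209 CPM, 7 counts). Each of these 7 values belongs to a receptor with few counts. Sucnr1 in scopolamine replicate 3 (136.8 CPM) had a gap of 0.826 of the range, just under that value.

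Among the summed lists, sham replicate 5 stood apart for adenylyl cyclases (217 CPM), enterocyte markers (6858 CPM) and lymphocyte markers (126 CPM), and sham replicate 7 for gut hormones (1169 CPM) and enteroendocrine markers (420 CPM). Both are the libraries made from 200 pg of RNA, and the part of RNA input in these values was not tested.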

How the results depend on the processing

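None of the receptors passed an adjusted p of 0.1 under any of 18 alternatives, of which a minimum of 10 counts in every library kept only Sucnr1 and Ffar3. Adjusted p ran from 0.838 to 0.999 for Sucnr1, from 0.797 to 0.999 for Ffar3 and from 0.369 to 0.999 for Ffar4. Ffar2, Ffar3, Ffar4 and Casr kept the direction of their log2 fold change under every alternative that gave one. That of Sucnr1 turned to -0.11 in limma-voom, to -0.41 with the mouse ID letter as a covariate and to -0.53 without scopolamine replicate 3, and with each mouse left out it ran from -0.53 to 0.43. That of Ffar1 turned to -0.26 without both low-input sham libraries, to -0.24 with cycles as a covariate and to -0.28 without scopolamine replicate 2 (range -0.28 to 0.89), and that of Gpr119 to -3.09 without scopolamine replicate 3 (range -3.09 to 6.93). Relative to the tuft markers, a scaling chosen after seeing the data, the differences in mean log2 level turned to 0.14 for Sucnr1 and 0.018 for Ffar3. The cause was not tested for any of these.

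The number of receptors whose groups do not overlap was 1, and 0 after thinning to the smallest total. With each mouse left out it was 1 to 2: Casr joined Ffar4 without scopolamine replicate 1, where 9.39% of genes did not overlap, and Ffar2 joined it without sham replicate 5, where 10.2% did not. In the gene lists edgeR called 0 genes, DESeq2 called 4 (Cd36, Scg3, Anpep and Slc5a1), and edgeR without both low-input sham libraries called 1 (Slc5a1, log2 fold change 3.94, adjusted p = 0.0444). In the fit without a filter for every gene, fewer fold changes were above 0: 1 of 15 tuft markers, 8 of 15 G protein alpha subunits, 5 of 9 phospholipase C and calcium release genes, 3 of 7 succinate enzymes and 8831 of all 18349 genes. No paired analysis was possible because the groups share no replicate number in the labels. For the 6 receptors with few counts, 3 counts of depth limit what could be told apart.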

Other observations

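Markers of other epithelial cells mostly had higher fitted levels with scopolamine, and none passed the edgeR test. All 14 enterocyte markers and all 12 goblet and Paneth markers had log2 fold changes above 0 (medians 1.56 and 1.499), as did 12 of 15 enteroendocrine markers (median 1.39), while 12 of 15 tuft markers were below 0 (median -0.13). Over all 18349 genes over 3 counts in a library the median was 0.00061. Slc5a1, the glucose transporter of enterocytes, measured 56.3 to 187 CPM with scopolamine and 8.15 to 39.9 CPM in sham without overlap (log2 fold change 2.51, edgeR adjusted p = 0.812, DESeq2 adjusted p = 0.00464). Goblet and Paneth sums were 728 to 3597 CPM with scopolamine and 372 to 1437 CPM in sham.

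Among gut hormones, 7 of the 11 over 3 counts were above 0 and 4 below. Sct, the hormone secretin, was measured in every mouse, with means of 222 CPM with scopolamine and 243 CPM in sham (log2 fold change -0.13). Other hormones varied widely between mice: Nts reached 300.2 CPM in sham replicate 7, and Cck ran from 0.952 to 148 CPM with scopolamine and from 0 to 259.9 CPM in sham. The enteroendocrine granule protein Chgb averaged 189 CPM with scopolamine and 44.4 CPM in sham, with an edgeR adjusted p of 0.828. The secretory granule protein Scg3 ran from 0.284 to 2.53 CPM with scopolamine and from 0 to 0.0743 CPM in sham without overlap (edgeR adjusted p = 0.587 without a filter, DESeq2 adjusted p = 0.0275). The prohormone convertase Pcsk2 (0.886 and 0.139 CPM) and the transcription factor Insm1 (2.50 and 0.432 CPM) also did not overlap between groups, with edgeR adjusted p of 0.812 for both. For Insm1 the separation was 0.601 against 0.597 CPM, and scopolamine replicate 2, at 7.21 CPM, raised the mean.

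Of the lists for cells outside the epithelium, 9 of the 11 myeloid markers over 3 counts were above 0 (median 0.53, or 0.78 with genes at the floor in 1 group set to their bound), 9 of 13 lymphocyte markers (median 0.34) and 4 of 9 stromal and neural markers (median -0.11, which turned to 0.33 with such genes at their bound). The stromal and neural sum stayed between 10.6 and 19.8 CPM in all 8 libraries, and the lymphocyte sum ran from 3.94 to 126 CPM.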
